A study of Mus musculus with 15 samples.

Results

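The uterine receptivity and gland regulators described here are 10 genes chosen by name: the cytokine *Lif* and its receptor *Lifr*, the hedgehog ligand *Ihh*, the homeobox genes *Msx1* and *Msx2*, the Krüppel-like factors *Klf5* and *Klf15*, and the transcription factors *Foxa2*, *Sox17* and *Gata2*. Rows were taken by the Ensembl identifier of each symbol, and all 10 were among the 16729 genes measured by RNA sequencing. All 10 also reached the mean normalized count of 10 required for testing in each comparison. The values were read in 15 samples of mouse endometrial epithelial organoids, which are bodies grown in Matrigel from dissociated uterine epithelium.

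Control organoids came from mice with the genotype Smad2flox/flox; Smad3flox/flox, and *Smad2/3* cKO organoids from mice that carried these floxed alleles together with Ltfcre/+. Thus the control animals also had floxed *Smad2* and *Smad3* alleles but no Cre. The Cre is expressed from the lactoferrin gene *Ltf*, which is active in the uterine epithelium and responds to estradiol, and cells without Cre activity keep both genes. Organoids were grown with DMSO vehicle or with A83-01 at 500 nM, an inhibitor of the activin and TGFβ type 1 receptors ALK4, ALK5 and ALK7 upstream of SMAD2 and SMAD3. The groups were control + vehicle (n = 3), control + A83-01 (n = 4), *Smad2/3* cKO (n = 4, vehicle) and *Smad2/3* cKO + A83-01 (n = 4). All were cultured in a medium that contained WNT3a, R-spondin and the BMP antagonist Noggin. The study describes its mice as adult unless noted, with no age given for the organoid donors in particular. Per its methods, mice were given estradiol around weaning to induce the Cre.

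In the mouse uterus, glands secrete LIF shortly before implantation, and LIF binds LIFR and its partner gp130 on the luminal epithelium to activate STAT3. Progesterone induces *Ihh* in the epithelium, which signals through PTCH1 and SMO to the stroma, while *Msx1* and *Msx2* mark the receptive epithelium and FOXA2, SOX17 and GATA2 act in gland formation and in the progesterone response. A lack of FOXA2 in the glands is known to leave the uterus without LIF at implantation.

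The sequences upstream of *Lifr* are shown because it was the member with the largest difference, and 1 of the 2 windows of *Gata2* because its samples were separated from control + vehicle in both main comparisons. Each window holds the 250 bases before a RefSeq transcription start in GRCm38.p6, 5′ to 3′ along the gene, and capitals mark matches to the short SMAD-binding CAGA box (CAGAC or its reverse complement GTCTG). RefSeq windows were found for 8 of the 10 members, and *Klf5* and *Sox17* had no entry. Among the 3 printed windows, 1 of those of *Lifr* held a CAGA box. The second *Gata2* window, chr6:88198414-88198663, is not printed because all 250 of its bases lie in an annotated exon, and it held 2 CAGA boxes.
Lifr, chr15:7129322-7129571, plus strand: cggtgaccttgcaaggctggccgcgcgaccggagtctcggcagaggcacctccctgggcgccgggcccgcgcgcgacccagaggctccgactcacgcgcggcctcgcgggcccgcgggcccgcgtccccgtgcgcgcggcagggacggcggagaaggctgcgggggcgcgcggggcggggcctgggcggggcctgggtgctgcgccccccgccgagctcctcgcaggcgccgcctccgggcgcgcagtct
Lifr, chr15:7140292-7140541, plus strand: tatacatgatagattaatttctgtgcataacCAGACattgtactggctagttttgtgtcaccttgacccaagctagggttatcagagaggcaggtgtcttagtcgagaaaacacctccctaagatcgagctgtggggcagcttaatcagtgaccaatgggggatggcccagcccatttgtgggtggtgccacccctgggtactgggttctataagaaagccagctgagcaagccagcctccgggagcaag
Gata2, chr6:88193641-88193890, plus strand: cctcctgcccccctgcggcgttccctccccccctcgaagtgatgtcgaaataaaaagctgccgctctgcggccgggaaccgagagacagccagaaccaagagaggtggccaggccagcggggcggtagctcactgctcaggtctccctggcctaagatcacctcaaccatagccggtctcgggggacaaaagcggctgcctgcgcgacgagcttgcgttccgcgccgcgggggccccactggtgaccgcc

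A CAGA box was present in 42.2% of all 32851 RefSeq windows of this length, so a match is common. The GC element GGCGCC, found in 9.59% of all windows, was present 2 times in the first *Lifr* window and 1 time in the *Gata2* window that is not printed, and was in neither of the other windows of these genes. The palindrome GTCTAGAC, found in 0.167% of all windows, was in none of the 12 windows of the members. These matches describe letters only, and binding was not measured here.

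The sum of normalized counts of a control sample was 20.2 M to 22.5 M with vehicle and 21.6 M to 24.4 M with A83-01 (M, 1e6 counts), and that of a *Smad2/3* cKO sample was 22.2 M to 22.8 M with vehicle and 23.2 M to 23.9 M with A83-01. *Smad2* had normalized counts of 821 to 924 in *Smad2/3* cKO and 1045 to 1335 in control + vehicle, which did not overlap but missed the threshold (log2 fold change −0.41, adjusted p = 0.0656), and *Smad3* had a log2 fold change of −0.07 (adjusted p = 0.827). Counts over the whole gene still include reads from exons that Cre leaves in place, so they are a weak check of the deletion. All 12 epithelial markers were present, with summed normalized counts of 145358 to 361981 per sample, against 4.79 to 212 for the 9 stromal markers in the file (of 12 listed) and 12.8 to 69.0 for 3 endothelial markers (of 9 listed). *Smad2/3* cKO replicate 2 stood apart with 3372 normalized counts of *Lyz2* and 351 of *Adgre1*, both macrophage genes, against at most 86.9 and 9.01 in the other 14 samples.

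Every comparison was tested with limma on log2(normalized count + 1), for all genes whose mean count in the fitted samples reached 10. These main fits did not pair samples, and fits blocked by replicate number are named as such. A gene was past the thresholds if its p, adjusted by Benjamini-Hochberg over these genes, was below 0.01 and its fold change was beyond 1.4 in either direction. In comparison (1), of A83-01 with vehicle in control organoids, 0 of the 10 members were past the thresholds, against a background of 2.27% of the 13009 genes tested (1.19% higher and 1.08% lower). In this comparison 4 members had an unadjusted p below 0.05, as had 22.2% of all genes tested. In comparison (2), of *Smad2/3* cKO with control organoids in vehicle, 1 of the 10 members, *Lifr*, was past the thresholds, against 7.38% of 13149 genes (4.08% higher and 3.3% lower), and 6 members had an unadjusted p below 0.05, against 33.7% of all genes. A count of 1 in 10 is near the background share. Comparisons (1) and (2) used the same 3 control + vehicle samples.

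The samples of 2 members did not overlap between the groups in comparison (1), *Lifr* and *Gata2*, against 21.7% of all genes tested. In comparison (2) this held for 4 members, *Lifr*, *Gata2*, *Sox17* and *Klf5*, against 30.8%. The median log2 fold change of the members was −0.34 in comparison (1) and −0.39 in comparison (2), where the medians of all genes were −0.02 and 0.00.

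**Figure D1:**
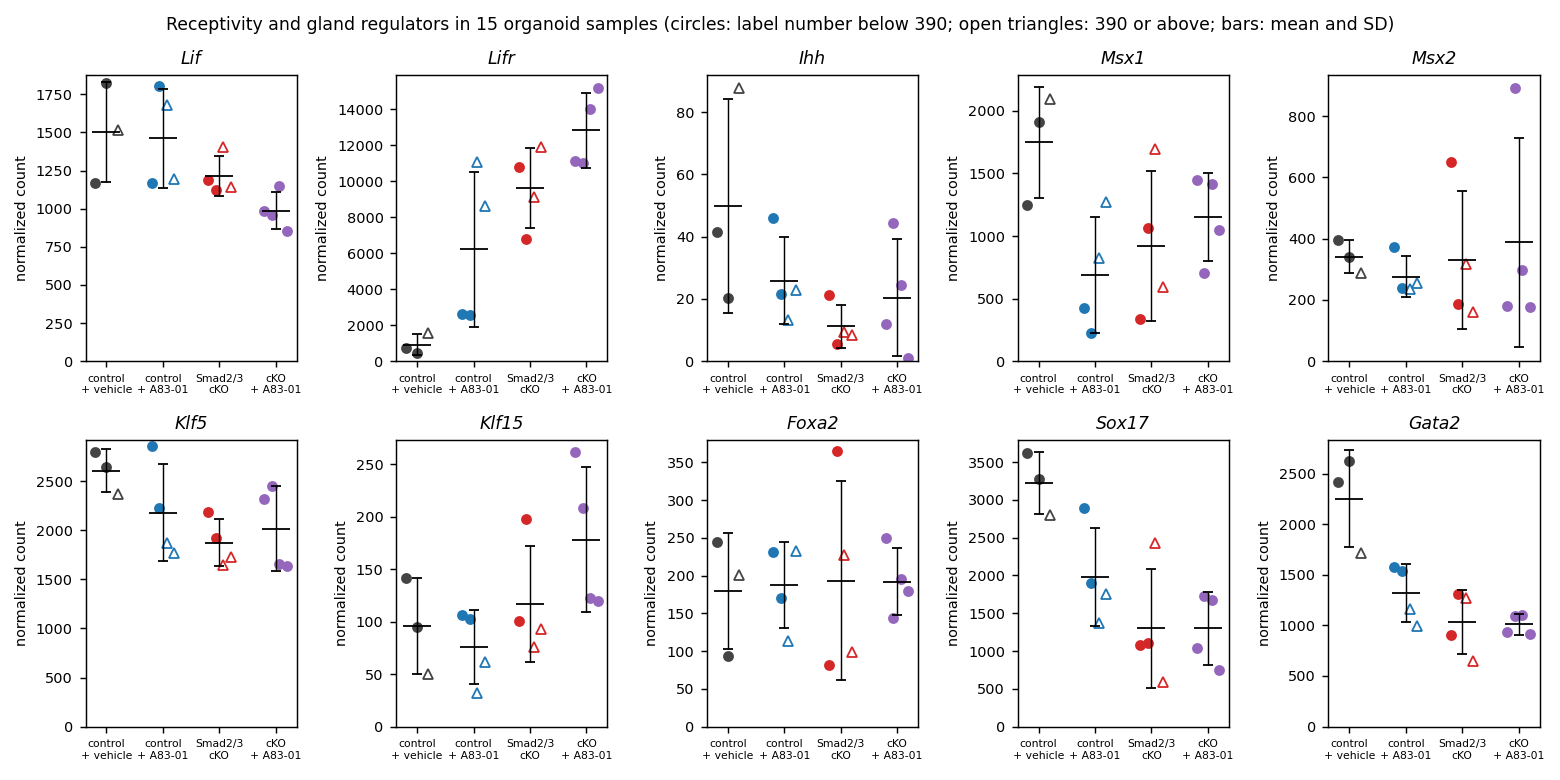
Normalized counts (linear axes from 0) of the 10 members in the 4 groups, 1 symbol per sample, with the mean and SD as a bar; open triangles are samples with label numbers of 390 or above. *Lifr* lay at 475 to 1564 in control + vehicle and at 2550 or above in every other sample, while *Gata2* lay highest in control + vehicle.

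*Lif* (ENSMUSG00000034394, chr11:4257557-4272514), the cytokine that glands secrete at implantation, had normalized counts of 1166, 1824 and 1513 in control + vehicle and 1167, 1802, 1678 and 1197 in control + A83-01. The *Smad2/3* cKO samples had 1186, 1121, 1404 and 1141, and the *Smad2/3* cKO + A83-01 samples 987, 961, 1146 and 853. Positions here and below are those of GRCm38. The ranges of the first 2 groups were almost the same, and the 4 *Smad2/3* cKO + A83-01 samples all lay below every control sample. The log2 fold change was −0.04 in comparison (1) (95% confidence interval −0.55 to 0.47, adjusted p = 0.938) and −0.29 in comparison (2) (−0.68 to 0.10, adjusted p = 0.277).

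*Lifr* (ENSMUSG00000054263, chr15:7090614-7197489), the receptor subunit that binds LIF, had normalized counts of 718, 475 and 1564 in control + vehicle. In control + A83-01 it had 2638, 2550, 11081 and 8641, in *Smad2/3* cKO 10806, 6786, 9127 and 11883, and in *Smad2/3* cKO + A83-01 11113, 11035, 13999 and 15197. Every sample with the inhibitor, the deletion or both was above all control + vehicle samples, and the control + A83-01 samples fell into a lower and a higher pair. In comparison (2) *Lifr* rose, with a mean of 9650 ± 2221 (SD, n = 4) in *Smad2/3* cKO against 919 ± 572 (SD, n = 3), and its log2 fold change was 3.54 (SE 0.36, adjusted p = 0.000563). In these bulk samples, more RNA per cell and more cells that express *Lifr* cannot be told apart, and the same holds for each member below. When single samples were left out the log2 fold change ran from 3.15 to 4.01, and without *Smad2/3* cKO replicate 2, the sample with macrophage genes, it was 3.70 (adjusted p = 0.00120).

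Markers of cell types moved in the same comparison. The 12 epithelial markers had lower sums in *Smad2/3* cKO (149037 to 264028) than in control + vehicle (283198 to 361981), and 2 of them, *Elf3* and *Cldn4*, fell past the thresholds. The 7 leukocyte markers in the file (of 8 listed) had sums of 2119 to 8274 against 1332 to 2976, and 1 of the 6 tested, *Ptprc*, which encodes CD45, rose from 22.8 ± 13.8 (SD, n = 3) to 225 ± 77.4 (SD, n = 4). Others in the list did not follow. *Lyz2* was at 0.940, 3372, 86.9 and 4.79 in *Smad2/3* cKO replicates 1 to 4, against 41.2 to 70.8 in control + vehicle. *Adgre1* was at most 7.76 in *Smad2/3* cKO outside replicate 2, against at most 5.25. Of the 2 smooth muscle markers tested, *Acta2* fell, and the sums of the 4 in the file were at most 219 in any sample. The part of these markers in the *Lifr* result was not tested.

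In comparison (1) the mean of *Lifr* was 6228 ± 4313 (SD, n = 4), a log2 fold change of 2.63 (SE 0.60, 95% confidence interval 1.28 to 3.99), and the adjusted p of 0.0322 missed the threshold. With single samples left out it was 2.25 to 3.11 (adjusted p = 0.0214 to 0.137). Control samples 1 to 3 carry the same label numbers with vehicle and with A83-01. Blocked by replicate number, the log2 fold change was 2.37 and *Lifr* was past the thresholds (adjusted p = 0.00125). The block fit rests on the 3 pairs, since replicate 4 of control + A83-01 has no partner. In the 3 pairs *Lifr* was 3.68 to 7.09 times as high with A83-01 as with vehicle. The lower pair of control + A83-01 samples, at 2550 to 2638, had label numbers below 390, and the higher pair, at 8641 to 11081, had numbers of 390 or above. The single control + vehicle sample with a number of 390 or above was also the highest of its group, at 1564 against 475 to 718. With the number series as a covariate, an alternative chosen after the data were seen, the log2 fold change was 2.35 (adjusted p = 0.000559). What the number series stands for is not given in the sources used here.

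Markers of other cell types were also at different levels in comparison (1). The 7 leukocyte markers had sums of 3423 to 8811 with A83-01 and 1332 to 2976 with vehicle, which did not overlap. Of the 6 tested, 0 were past the thresholds by limma and 5 had an unadjusted p below 0.05, in either direction, against 22.2% of all genes. The median log2 fold change of the 6 was 1.20. The list did not move together: *Lyz2* was lower with A83-01, at 5.24 to 15.1 against 41.2 to 70.8, and *Adgre1* was at most 9.01 in these samples. Both were a small part of the leukocyte sums, so the rise in the sums came from other markers of the list. Sums of the 4 smooth muscle markers were lower with A83-01, at 29.9 to 55.1 against 73.9 to 219, with 0 of the 2 tested past the thresholds. The sums of the epithelial markers overlapped (185598 to 306764 against 283198 to 361981), and 0 of 12 were past the thresholds. Their part in the values of *Lifr* with A83-01 was not tested.

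**Figure D2:**
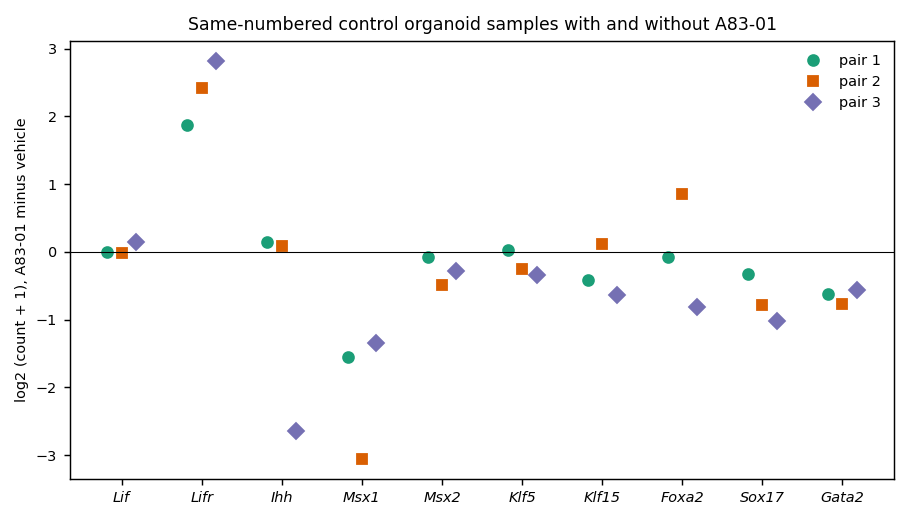
Difference in log2 (normalized count + 1) between A83-01 and vehicle (vertical axis) for each of the 10 members in the 3 pairs of control samples that share a label number, 1 symbol per pair. *Lifr* was higher with A83-01 in 3 of 3 pairs, and *Gata2*, *Sox17*, *Msx1* and *Msx2* were lower in 3 of 3.

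Among 13065 genes, those whose pattern over the 15 samples was closest to that of *Lifr* were *Dpysl5* and *Lrat*, by the root mean square difference of mean-centred log2 values (0.48 and 0.49, where *Lifr* itself had an SD of 1.57). *Dpysl5* encodes a protein of the collapsin response mediator family, and *Lrat* encodes the enzyme that esterifies retinol. Mean normalized counts of *Dpysl5* were 46.2 with vehicle and 456 with A83-01 in control organoids, and 699 and 860 in *Smad2/3* cKO organoids. Those of *Lrat* in this order were 798, 7392, 8874 and 11409.

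The genes through which LIF and related cytokines act were described from a list of 22, of which 19 were tested. With limma, 0 of the 19 were past the thresholds in comparison (1), and 1, *Junb*, fell in comparison (2). Of the 19, 4 had an unadjusted p below 0.05 in comparison (1), against 22.2% of all genes tested. In comparison (2) this held for 7, against 33.7%. *Junb*, an AP-1 transcription factor, had 4042 to 4804 normalized counts in control + vehicle and 1892 to 2790 in *Smad2/3* cKO (log2 fold change −0.94, adjusted p = 0.00404). The median log2 fold change of the list was −0.15 in comparison (1) and −0.05 in comparison (2). *Il6st*, which encodes gp130, had 5103 ± 902 normalized counts in control + vehicle (SD, n = 3) and 6290 ± 1171 in *Smad2/3* cKO (SD, n = 4; log2 fold change 0.30, adjusted p = 0.298). For *Stat3*, the transcription factor downstream of the receptor, the log2 fold changes were 0.06 and 0.27 in the 2 comparisons (adjusted p = 0.876 and 0.281). For *Socs3*, a feedback inhibitor that STAT3 induces, they were 0.56 and 0.92 (adjusted p = 0.353 and 0.0525).

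*Ihh* (ENSMUSG00000006538, chr1:74945315-74951672), the progesterone-induced hedgehog ligand, had the lowest counts of the 10 genes, with 41.5, 20.4 and 87.8 normalized counts in control + vehicle and 46.0, 21.8, 13.1 and 22.8 in control + A83-01. Its counts were 21.2, 5.70, 9.46 and 8.37 in *Smad2/3* cKO and ran from 1.02 to 44.5 in *Smad2/3* cKO + A83-01. Of the 4 *Smad2/3* cKO samples, 3 were below every control sample of either treatment, and replicate 1 was not. The log2 fold change was −1.98 in comparison (2) (SE 0.66, adjusted p = 0.0666) and −0.82 in comparison (1) (adjusted p = 0.500).

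Of 16 listed genes of hedgehog signaling, 11 were found by symbol among the measured genes and 9 were tested. *Gli1*, *Gli2* and *Gli3* were not among those found, so no value can be given for them. *Smo*, which encodes the membrane protein that passes on the signal, had 1770, 1657 and 1215 normalized counts in control + vehicle, 565, 626, 375 and 292 in control + A83-01, and 264, 224, 445 and 295 in *Smad2/3* cKO. The groups did not overlap with control + vehicle. *Smo* fell in comparison (1) (log2 fold change −1.78, adjusted p = 0.00844) and in comparison (2) (−2.36, adjusted p = 0.000691). *Hhat*, the enzyme that attaches palmitate to hedgehog ligands, fell in comparison (2) from 164 to 243 down to 50.8 to 77.6 normalized counts (log2 fold change −1.66, adjusted p = 0.00572), and had a log2 fold change of −1.19 in comparison (1) (adjusted p = 0.0390). The other 7 of 9 were not past the thresholds in either comparison. For *Ptch1*, the receptor and a target of the pathway, the log2 fold changes were −0.55 and −0.34 (adjusted p = 0.419 and 0.481), and for *Nr2f2*, which encodes the nuclear receptor COUP-TFII, −0.55 and −0.80 (adjusted p = 0.235 and 0.0796). The median of the list was −0.55 in comparison (1) and −0.80 in comparison (2).

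*Msx1* (ENSMUSG00000048450, chr5:37820485-37824583), a homeobox gene of the receptive epithelium, had normalized counts of 1249, 1907 and 2090 in control + vehicle and 426, 228, 822 and 1272 in control + A83-01. The deletion samples had 336, 1065, 1697 and 593 in vehicle and, in A83-01, 1448, 706, 1416 and 1046. Each group overlapped with control + vehicle by at least 1 sample. In the 3 same-numbered pairs of control samples *Msx1* with A83-01 was at 0.120 to 0.393 of its level with vehicle. The log2 fold change was −1.59 in comparison (1) (SE 0.52, adjusted p = 0.105) and −1.14 in comparison (2) (SE 0.48, adjusted p = 0.131), so neither passed. Blocked by replicate number, comparison (1) gave −1.98 for *Msx1*, and its adjusted p of 0.0131 still missed the threshold. *Msx2* (ENSMUSG00000021469, chr13:53466884-53473074), its paralog with a shared role in implantation, had 288 to 394.9 normalized counts with vehicle and 236 to 374 with A83-01 in control organoids, and 161 to 651 and 177 to 894 in *Smad2/3* cKO organoids. Its log2 fold changes were −0.31 and −0.26 in the 2 comparisons (adjusted p = 0.518 and 0.71), and the groups overlapped.

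*Klf5* (ENSMUSG00000005148, chr14:99298691-99315036), a Krüppel-like factor needed in the uterine epithelium for implantation, had normalized counts of 2803, 2651 and 2374 in control + vehicle and 2189, 1924, 1652 and 1728 in *Smad2/3* cKO, which did not overlap. It had 2860, 2228, 1870 and 1770 in control + A83-01, which overlapped with control + vehicle, and 1633 to 2454 in *Smad2/3* cKO + A83-01. In comparison (2) the log2 fold change was −0.48 (SE 0.14, adjusted p = 0.0396), a fold of 0.715 that lay just inside the fold limit as well, and in comparison (1) it was −0.28 (adjusted p = 0.448). *Klf15* (ENSMUSG00000030087, chr6:90462576-90475238), a factor known to act in steroid hormone responses of the uterine epithelium, had 50.6 to 142 normalized counts with vehicle and 32.1 to 106 with A83-01 in control organoids, and 76.1 to 198 and 119.9 to 262 in *Smad2/3* cKO organoids. The log2 fold changes of *Klf15* were −0.36 and 0.31 in the 2 comparisons (adjusted p = 0.749 and 0.667).

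*Foxa2* (ENSMUSG00000037025, chr2:148042877-148046969), the transcription factor that marks uterine glands, had normalized counts of 244, 93.9 and 200.2 in control + vehicle and 231, 169.9, 114 and 233 in control + A83-01. Counts in *Smad2/3* cKO were 81.8, 365, 228 and 99.0, and those in *Smad2/3* cKO + A83-01 ran from 143 to 250.1. The 4 groups overlapped, and *Smad2/3* cKO held both the lowest and the highest of the 15 values. The log2 fold change was 0.11 in comparison (1) (95% confidence interval −0.80 to 1.03) and −0.04 in comparison (2) (−1.29 to 1.20). These intervals are wide enough to hold differences of more than 1 on the log2 scale in either direction for comparison (2).

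*Sox17* (ENSMUSG00000025902, chr1:4490931-4497354), a transcription factor of the uterine epithelium and its glands, had normalized counts of 3615, 3273 and 2800 in control + vehicle and 2890, 1896, 1374 and 1755 in control + A83-01. Among deletion samples *Sox17* had 1080, 1101, 2429 and 593 in vehicle and, in A83-01, 1041, 1727, 1681 and 750.3. All 4 *Smad2/3* cKO samples were below control + vehicle, with replicate 3 closest to it, and 1 control + A83-01 sample overlapped. The log2 fold change was −1.49 in comparison (2) (SE 0.39, adjusted p = 0.0281) and −0.75 in comparison (1) (SE 0.24, adjusted p = 0.103), so neither passed. Without *Smad2/3* cKO replicate 3 it was −1.85 in comparison (2) and past the thresholds (adjusted p = 0.00256), while with each other sample left out the adjusted p reached at most 0.0988. In the 3 pairs of control samples *Sox17* with A83-01 was at 0.491 to 0.799 of its level with vehicle. Blocked by replicate number, its log2 fold change in comparison (1) was −0.71 (adjusted p = 0.0405), which did not pass.

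*Gata2* (ENSMUSG00000015053, chr6:88193891-88207032), a transcription factor of the uterine progesterone response, had normalized counts of 2419, 2623 and 1712 in control + vehicle and 1579, 1537, 1160 and 996 in control + A83-01. It had 902, 1313, 1269.9 and 651 in *Smad2/3* cKO, and with A83-01 added 930, 1089, 1101 and 914. All 12 samples with the inhibitor, the deletion or both were below all 3 control + vehicle samples. The log2 fold change was −1.15 in comparison (2) (SE 0.26, adjusted p = 0.0165) and −0.77 in comparison (1) (SE 0.23, adjusted p = 0.0746), and neither passed the thresholds. With all 4 groups in 1 fit, comparison (2) gave an adjusted p of 0.00394 for *Gata2* and the call was made, and with single samples left out it was 0.0154 to 0.0681. In the 3 pairs *Gata2* with A83-01 was at 0.586 to 0.678 of its level with vehicle. Blocked by replicate number, its log2 fold change in comparison (1) was −0.65 (adjusted p = 0.0278), which did not pass.

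**Figure D3:**
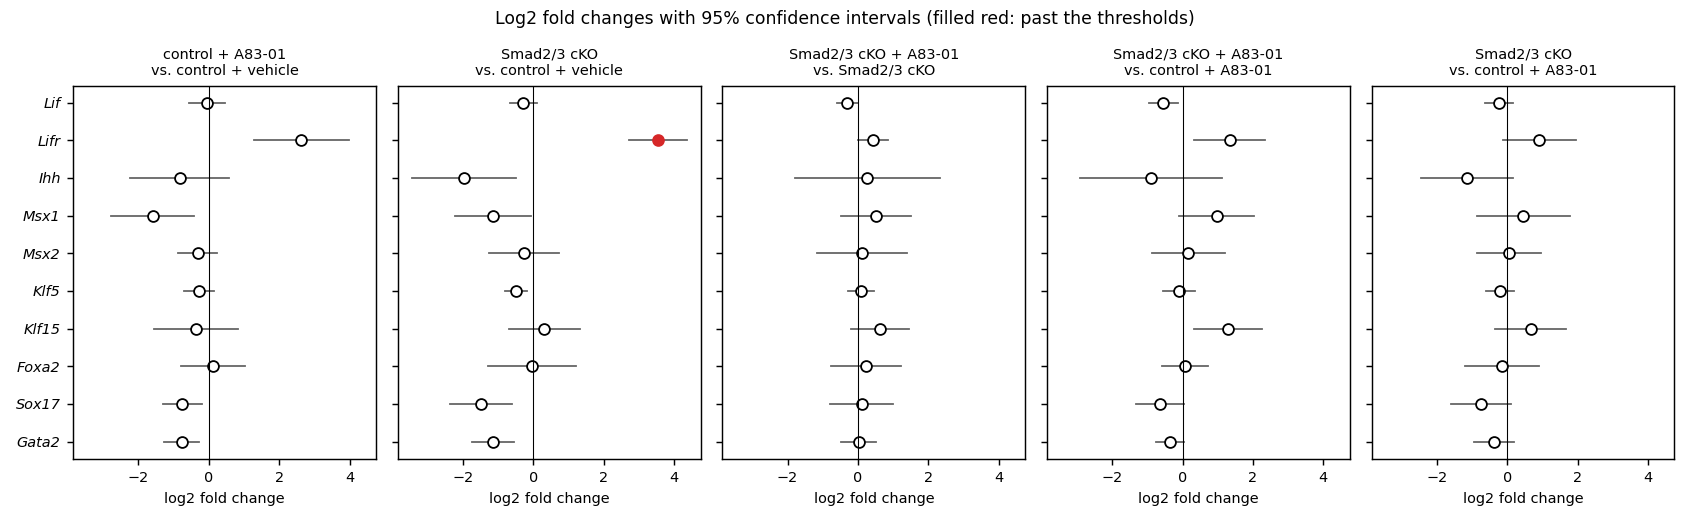
Log2 fold changes (points) with 95% confidence intervals (lines) of the 10 members in the 5 comparisons of 2 groups, from limma; a filled red point is past the thresholds. *Lifr* in *Smad2/3* cKO vs. control + vehicle is the 1 filled point, at 3.54.

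Progesterone and estrogen response genes, of which 19 of 25 listed were tested, had 1 higher and 0 lower past the thresholds in comparison (1) and 2 higher and 1 lower in comparison (2), with a median log2 fold change of −0.24 in both. *Pgr*, the progesterone receptor, had 577, 795 and 858 normalized counts in control + vehicle and 268, 344, 157 and 227 in *Smad2/3* cKO, and fell in comparison (2) (log2 fold change −1.61, adjusted p = 0.00539). In control + A83-01 it had 197 to 546, below control + vehicle in all 4 samples, with a log2 fold change of −1.26 that missed the threshold (adjusted p = 0.0581). For *Esr1*, the estrogen receptor, the log2 fold changes were −0.15 and 0.40 (adjusted p = 0.824 and 0.272). *Cyp26a1*, which degrades retinoic acid, rose in both comparisons, where its log2 fold changes were 4.66 and 4.43 (adjusted p = 0.00105 and 0.00124), and *Bmp8a*, a BMP family ligand, rose in comparison (2) (log2 fold change 1.09, adjusted p = 0.00641).

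Of 21 listed uterine gland genes, 16 were tested in these comparisons, and 2 rose in each, *Guca2b* and *Prss29*, with none past the thresholds in the other direction. *Guca2b*, which encodes the secreted peptide uroguanylin, had 786 to 2108 normalized counts with vehicle and 9171 to 146982 with A83-01 in control organoids, and 42903 to 164297 in *Smad2/3* cKO (log2 fold changes 5.35 and 6.11, adjusted p = 0.00770 and 0.000178). Within control + A83-01 it was at 9171 to 32353 in samples with label numbers below 390 and at 93413 to 146982 in the others. *Prss29*, a serine protease of uterine glands, was listed at 0 in all 3 control + vehicle samples, at 16.3 to 322 with A83-01 and at 188 to 6403 with the deletion. For *Sox9*, a transcription factor of epithelial progenitors and glands, the log2 fold changes were −1.06 and −0.14 (adjusted p = 0.0823 and 0.806). The median log2 fold change of the list was −0.30 in comparison (1) and −0.10 in comparison (2), so the 2 that rose differed in direction from most of the list in comparison (1).

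Among 28 relatives of the members in the FOXA, SOXF, GATA, MSX/DLX and KLF families, 14 were tested, 1 rose in each comparison and none fell. This was *Klf9*, a progesterone receptor coregulator, which had 310.4, 297 and 249 normalized counts in control + vehicle, 622 to 848 with A83-01 and 725 to 912 with the deletion. Its log2 fold changes were 1.35 and 1.5 (adjusted p = 0.00494 and 0.000759). *Foxa1*, the relative of *Foxa2*, had 159.7, 178 and 576 normalized counts in control + vehicle and 17.2, 82.4, 16 and 28.9 in *Smad2/3* cKO, with a log2 fold change of −3.11 that missed the threshold (adjusted p = 0.0120). For *Klf4*, the relative of *Klf5*, the log2 fold changes were −0.25 and −0.31 (adjusted p = 0.473 and 0.273). The median of the list was −0.36 in comparison (1) and −0.53 in comparison (2).

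**Figure D4:**
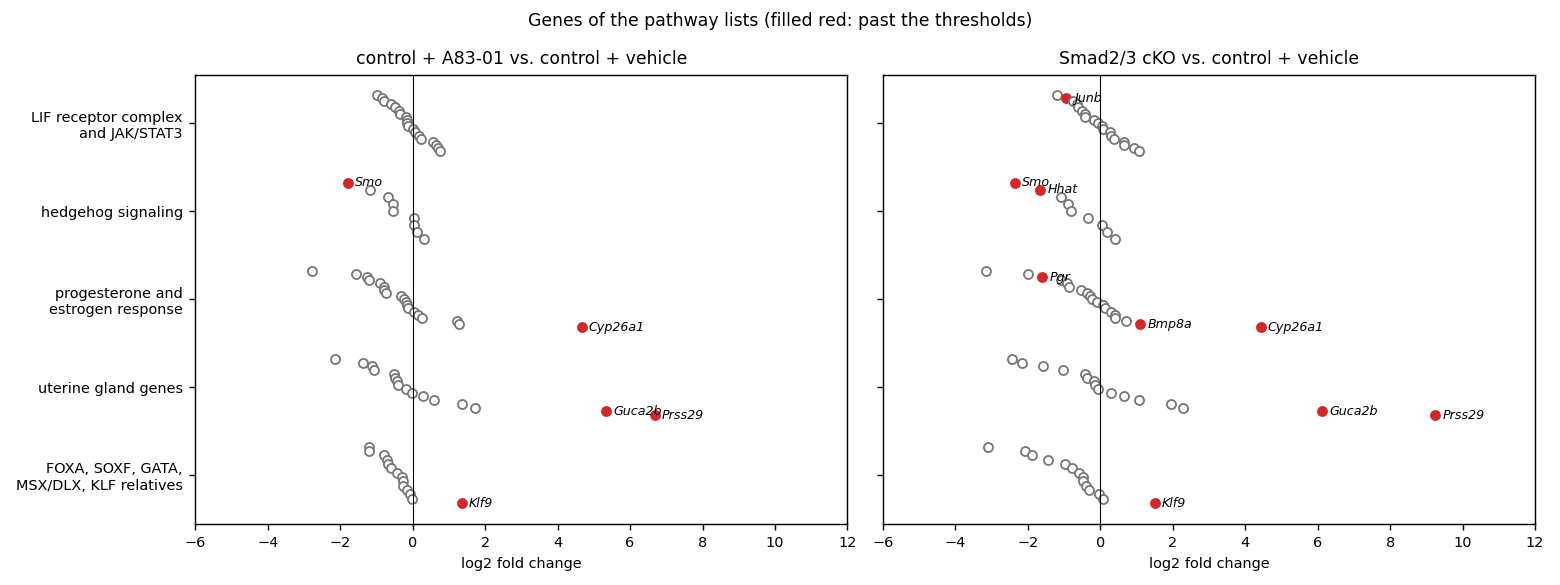
Log2 fold changes (horizontal axis) of the tested genes of 5 lists in comparisons (1) and (2), 1 point per gene; filled red points with names are past the thresholds. Named genes to the right of 0 are *Cyp26a1*, *Guca2b*, *Prss29* and *Klf9* in both panels and *Bmp8a* in the second, and those to the left are *Smo* in both and *Junb*, *Hhat* and *Pgr* in the second; *Prss29* was at 0 in control + vehicle, so its place depends on the 1 added to each count.

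The effect of A83-01 was also measured in *Smad2/3* cKO organoids. There limma put 0 of the 10 members past the thresholds, with 2 at an unadjusted p below 0.05, and 0% of 12998 genes, with 554 at an unadjusted p below 0.05. The samples of 0 members were separated between these groups, against 2.90% of all genes. *Lifr* had a log2 fold change of 0.43 there (95% confidence interval 0.01 to 0.85, adjusted p = 0.994) and *Lif* of −0.30 (−0.60 to −0.00, adjusted p = 0.994). The samples were not paired in this fit, although each *Smad2/3* cKO sample correlated over all tested genes with 1 A83-01 sample at 0.365 to 0.393. A fit with these matches was not run, so the counts of 0 hold for the unpaired fit.

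The difference between the genotypes in the A83-01 effect was tested as an interaction over all 4 groups, in which 0.551% of 13066 genes and 0 of the 10 members were past the thresholds by limma, with 3 members and 14.3% of all genes at an unadjusted p below 0.05. For *Lifr* the log2 fold change with A83-01 was 2.21 lower in *Smad2/3* cKO than in control organoids, an interaction of −2.21 (SE 0.66, adjusted p = 0.119). For *Msx1* the interaction was 2.11 (SE 0.76, adjusted p = 0.199), with values of 706 to 1448 in *Smad2/3* cKO + A83-01 against 228 to 1272 in control + A83-01. For *Gata2* the interaction was 0.79 (SE 0.33, adjusted p = 0.279). A difference in the A83-01 effect between genotypes was thus not shown for any member. The main interaction fit was also unpaired.

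Between the genotypes under A83-01, in *Smad2/3* cKO + A83-01 vs. control + A83-01, 0 of the 10 members and 0.0232% of 12915 genes were past the thresholds, with 3 members and 9.52% of all genes at an unadjusted p below 0.05. The samples of 2 members did not overlap, *Lif* (lower) and *Klf15* (higher), against 6.12% of all genes. *Lif* had a log2 fold change of −0.55 (SE 0.18, adjusted p = 0.373) and *Klf15* of 1.29 (SE 0.44, adjusted p = 0.373). *Lifr* had a log2 fold change of 1.33 (adjusted p = 0.379), and with the label number series as a covariate 2.29 (adjusted p = 0.000528). All 4 *Smad2/3* cKO + A83-01 samples have label numbers below 390, and within that series *Lifr* was at 11035 to 15197 in them and at 2550 to 2638 in the 2 control + A83-01 samples. *Klf15* was at 119.9 to 262 in *Smad2/3* cKO + A83-01 and at 102 to 106 in the 2 control + A83-01 samples numbered below 390. The control + A83-01 samples numbered 390 or above had 32.1 to 61.6. Unlike that of *Lifr*, the log2 fold change of *Klf15* was smaller with the series as a covariate, at 0.69.

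Deletion and inhibitor were compared directly in *Smad2/3* cKO vs. control + A83-01, where limma put 0 of the 10 members and 0% of 12980 genes past the thresholds, with 0 members and 826 genes at an unadjusted p below 0.05. The samples of 0 members were separated, against 3.45% of all genes. The intervals still allowed sizeable differences, as for *Lifr* (log2 fold change 0.91, 95% confidence interval −0.13 to 1.95), *Sox17* (−0.74, −1.59 to 0.12) and *Ihh* (−1.16, −2.46 to 0.15). For *Lif* the interval was −0.65 to 0.15 and for *Klf5* −0.60 to 0.19.

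Levels of different members were compared per kilobase of merged exons (GENCODE annotation of GRCm38), as mean normalized counts per kilobase in control + vehicle. *Sox17* had the highest level at 677 ± 85.9, followed by *Msx1* at 565 ± 143, *Klf5* at 502 ± 41.8, *Gata2* at 417 ± 88.5 and *Lif* at 345 ± 75.7 (SD, n = 3 for each). *Msx2* (104), *Lifr* (85.3), *Foxa2* (75.7), *Klf15* (34.3) and *Ihh* (16.4) were lower. Among neighbours in this order, the samples overlapped in all but 1 case, *Lif* and *Msx2*, so neighbours within the upper 5 and within the lower 5 members were not separated beyond their spread. With deletion and A83-01, *Lifr* had 1191 ± 194 normalized counts per kilobase (SD, n = 4), above the 272 ± 101 of *Sox17*.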

How the data were processed

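RNA of 15 mouse endometrial organoid samples was analysed in 4 groups taken from the sample labels. Libraries were made by the authors with a low-input cDNA kit, transcripts were quantified with Salmon 1.4.0 (genome build GRCm39) and counts were scaled with DESeq2 1.32.0, per the study's methods. The values the authors deposited are named signal here. Each is a Salmon estimate for a gene, divided by the size factor of its sample. The median ratio to the geometric mean over 12745 genes was the same in every sample, which fits size factors. Whole reads were not recovered, so no test for raw counts was used, and a size factor hides how many reads a value rests on. All 15 columns were matched to a sample, and 16697 of 16729 identifiers had a symbol. Positions and exon lengths are those of GRCm38, not of the build used by the authors.

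Each comparison was fitted on its own groups with limma 3.58.1 (lmFit, eBayes with trend, two-sided) in R 4.3.3 on log2(normalized count + 1), for genes with a mean of at least 10, with Benjamini-Hochberg adjustment over all of them. Fold changes are on that scale, which understates the change of low genes. Thresholds were those of the study's methods (adjusted p below 0.01, fold beyond 1.4 in either direction). The interaction used all 4 groups. The code was tested on simulated data. The members, the lists and the tests were chosen with earlier results of these data known. Named were all 10 members, 11 pathway genes in any case (*Il6st*, *Stat3*, *Socs3*, *Ptch1*, *Gli1*, *Nr2f2*, *Pgr*, *Esr1*, *Foxa1*, *Sox9* and *Klf4*), up to 4 genes per list and comparison with the largest change past the thresholds, the 2 genes nearest to each member past the thresholds, *Smad2* and *Smad3*. *Lyz2*, *Adgre1*, *Elf3* and *Cldn4* were named as markers after their values were seen.

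Replicate numbers were checked for pairing. Deviations from the group mean correlated at 0.365 to 0.427 in the 3 same-numbered pairs of control + vehicle and control + A83-01 samples, which also share label numbers, against a mean of −0.136 for other combinations. The highest of those others was 0.355, for label numbers 395 and 396, close to the 0.365 of the pair numbered 395. These numbers were taken to pair the samples. The mean over same-numbered replicates was 0.0583 for *Smad2/3* cKO and control + vehicle and 0.136 for *Smad2/3* cKO with and without A83-01. These were not taken as pairs. In the latter, each *Smad2/3* cKO sample correlated at 0.365 to 0.393 with 1 A83-01 sample and at 0.0664 or less with the others. The matched label numbers were 369 with 369, 367 with 371, 393 with 372 and 394 with 373. No fit used these matches, and the replicate block joined replicates 1 and 2 by number, at −0.0582 and −0.161. Per the study's methods, the organoids of a condition came from different mice (3 for control + vehicle, 4 for control + A83-01 and 4 for *Smad2/3* cKO). Label numbers were 367, 368, 395 and 396 across control organoids. In *Smad2/3* cKO organoids they were 367, 369, 393 and 394 with vehicle and 369, 371, 372 and 373 with A83-01. Only 369 was shared between these, 367 occurred in both genotypes, and whether the numbers name mice is not given. Alternatives were other pseudocounts (0.1 and 10), no filter and a mean of at least 50, quantile normalization, eBayes without trend, all 4 groups in the fit, the replicate block, an adjusted p below 0.05, no fold threshold, leaving out each sample, and the label number series (below 390 or not), which was added after the data were seen.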

Additional observations from a re-analysis of the deposited data

Results flagged for a closer look

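Among the 30 groups of 4 samples formed by the 10 members, 1 held a sample far from the others. *Msx2* was at 374 normalized counts in control + A83-01 replicate 1, against 236 to 255 in the other 3 samples. Its gap to the next sample, as a share of the range of the group, was at the 95% critical value of Dixon itself, so the flag rests on rounding. Chance alone flags about 1 in 20 groups.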

How the results depend on the processing

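In comparison (1), A83-01 in control organoids, 1 member (*Lifr*) instead of 0 was past the thresholds with all 4 groups in the fit, with the replicate block, with the replicate block on the 3 pairs only, with the label number series as a covariate, and at an adjusted p below 0.05. In comparison (2), the deletion, 2 members were past with all 4 groups (*Gata2* added) and 3 at an adjusted p below 0.05, and the count was 1 to 2 when each sample was left out (2 without *Smad2/3* cKO replicate 3). In *Smad2/3* cKO + A83-01 vs. control + A83-01 it was 1 (*Lifr*) with the label number series. The cause of these moves was not tested. The counts of the other 3 contrasts stayed at 0 in every alternative run. Of 1064 values of single members under an alternative, 1054 kept their direction or moved by less than their standard error on the same side of the thresholds, 7 passed the thresholds newly, 3 moved by more, and 0 called values were lost or reversed. Among the 3, *Foxa2* in comparison (1) was −0.30 without control + vehicle replicate 2. Over all genes, 295 were past in comparison (1) (49 to 312 with a sample left out, lowest without control + vehicle replicate 2, and 146 to 955 otherwise) and 970 in comparison (2) (280 to 992, lowest without control + vehicle replicate 1, and 211 to 2410, where 211 is with the replicate block). The interaction gave 72 (39 to 77, and 61 to 208). Apart from *Lifr* in comparison (1), the replicate block changed the call of no member. The limma adjusted p of the other members in comparison (1) with the block ran from 0.0131 (*Msx1*) to 0.985 (*Foxa2*). Within *Smad2/3* cKO organoids the block followed replicate numbers, which for replicates 1 and 2 did not join the samples that correlated most. With 3 or 4 samples per group the intervals of 8 of the 10 members, all but *Lif* and *Klf5*, span over 1 on the log2 scale in comparison (2), which limits the differences that were detectable.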
